A study of Rattus norvegicus with 10 samples.

Results

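The cytosolic ribosome is built from ribosomal RNA and about one copy each of a large family of small, mostly basic proteins. Their genes are named Rpl for the large subunit and Rps for the small subunit. All rows of the deposited count table with such a symbol were taken, together with Rpsa, Rplp0, Rplp1 and Rplp2, and the Rps6k kinases were left out. This gave 82 genes of 17168, 49 of the large and 33 of the small subunit. Of these, 80 had enough counts to be tested, 47 large and 33 small. The 2 that did not, Rpl3l and Rpl39l, are paralogs with at most 12 counts in any library.

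RNA was sequenced from the left hippocampus of 10 male TgF-344AD rats, labelled Tg-AD, at 11 months of age. These rats carry human mutant amyloid precursor protein and presenilin transgenes under the mouse prion promoter and serve as a model of Alzheimer's disease. All 10 carried the transgenes. The 5 untreated rats ate rodent chow, and the 5 RG2833 rats ate it with RG2833 mixed in at 750 mg per kg. RG2833 blocks HDAC1 and HDAC3, enzymes that take acetyl groups off histones. Dosing began at 5 months of age and lasted 6 months. Ibudilast stands in 1 sentence of the design text where the labels have RG2833, and the labels were followed. The comparison asks how RG2833 affects transcript levels in transgenic males.

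Ribosomal protein mRNAs are among the most abundant in most cells, and their transcription is usually coordinated so that subunits can be assembled in equal numbers. In vertebrates most of them begin with a C followed by a run of pyrimidines, the 5′ terminal oligopyrimidine (TOP) tract. Through this tract the kinase complex mTORC1 and the RNA-binding protein LARP1 control their translation and stability. In neurons, ribosomal protein mRNAs are also found in dendrites and axons.

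The start sites are shown first because the tract is a sequence feature the family is known for. RefSeq promoter sequences of the GRCr8 assembly matched 66 of the 82 symbols, with 67 entries, since Rps27a has 2. Each line gives 30 bases, 15 before the annotated start and 15 from it, 5′ to 3′ on the gene's strand. Capitals mark the longest run of C and T in the 30 bases. The first 5 had the largest coefficients of variation between rats among members with an entry, leaving out the low Rps4y2. The next 2, Rpl3 and Rps9, varied little, and the last 2 are paralogs that followed the family poorly.
Rpl37: tggtaggcgtaCTTTCTCTTCCggtctctt
Rpl37a: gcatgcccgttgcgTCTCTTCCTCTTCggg
Rpl9: gacgaaggacgTTCTCTCTTTgccccatct
Rps19: cccgacttgtgcgcccgggaaaCCCCgtcg
Rpl35: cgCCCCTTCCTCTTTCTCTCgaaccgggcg
Rpl3: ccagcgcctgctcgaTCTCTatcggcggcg
Rps9: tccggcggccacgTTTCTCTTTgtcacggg
Rpl22l1: gCTCCgtggatatccggttccgagttgcgc
Rps27l: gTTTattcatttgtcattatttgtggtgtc
In GRCr8 these windows lie at chr2:55942930-55942959 for Rpl37, chr9:81748076-81748105 for Rpl37a and chr14:43247575-43247604 for Rpl9, all on the plus strand. They lie at chr3:43165907-43165936 (minus) for Rpl35, chr1:89608673-89608702 (plus) for Rps19, chr7:113507976-113508005 (minus) for Rpl3 and chr1:74430423-74430452 (minus) for Rps9. For Rpl22l1 and Rps27l they lie at chr2:113683181-113683210 and chr8:76443643-76443672, both plus.

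A C at the annotated start followed by C or T up to at least the fifth base was found in 24 of the 67 member entries (35.8%), against 2.63% of all 33469 promoters. A run of at least 8 C or T within 30 bases of the start was found in 54 of 67 (80.6%), against 23.2%. The longest such run had a median of 10 bases in members and 5 in all promoters. In 6 of the 9 windows above the run in capitals includes the annotated start. In Rps19 the longest run within 30 bases of the start, 13 bases, lies outside the printed window. In Rpl22l1 and Rps27l the longest within 30 bases was 4. An annotated start can differ from the base used most. The motif CCGGAAG, the core bound by ETS-family factors such as GABP, was present on either strand in 20 entries (29.9%, against 8.75% of all promoters). The SP1 core GGGCGG was present on either strand in 40 (59.7%, against 33.1%), and AAGATGGC, the core bound by YY1, in 5 (7.46%, against 3.17%). TATAAA on the gene's strand was present in 6 (8.96%, against 8.80%). These were searched in the 300 bases from 250 before to 50 after the start, and the motifs can overlap. Members with a C or T run of at least 5 bases from a C at the start had a median response of 1.11 to the family's common level, defined below (n = 24). The other tested members with an entry had 0.95 (n = 41), and the ranges, 0.69 to 1.53 and -0.25 to 1.74, overlapped.

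Total expected counts ran from 15118203 to 18533520 per library, and ribosomal RNA rows took 4.07% to 11.41% of them. Untreated replicate 3 stood apart. It had the most ribosomal RNA and the lowest summed level of dentate granule cell markers, 31.6 counts per 1e6 (CPM) against 67.1 to 223 in the others. All markers of neurons, astrocytes, oligodendrocytes and microglia had enough counts to be tested, as had 4 of 5 for CA1, 5 of 6 for CA3 and 3 of 5 for dentate granule cells, of which Tdo2 was at 0 throughout. Untreated replicate 2 and RG2833 replicate 1 held choroid plexus RNA, with marker sums of 7957 and 9320 CPM, against 10.6 to 284 in the other libraries. Fitted values of the genes described are also given without untreated replicate 3. The effect of leaving out the other libraries is given for the family as a whole. RG2833 replicates 4 and 5, in which the family was also high, stay in the fits without untreated replicate 3. The family's median log2 fold change was 0.14 with all libraries and 0.26 without untreated replicate 3. Without RG2833 replicate 5 it was 0.07, so the single-gene values given show only the omission that raised it most.

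The members together took 1.82%, 1.91%, 2.66%, 2.03% and 1.95% of the counts in untreated replicates 1 to 5. In RG2833 replicates 1 to 5 they took 1.98%, 2.172%, 1.90%, 2.45% and 2.61%. Counting error was small beside these differences; the 95% Wilson interval was 1.81 to 1.82 in untreated replicate 1 and 2.66 to 2.67 in untreated replicate 3. On average the share was 2.08% ± 0.34 over untreated and 2.22% ± 0.30 over RG2833 rats (SD, n = 5 each). The highest untreated rat thus lay above every RG2833 rat, and the other 4 untreated rats spanned 1.82% to 2.03%. Outside ribosomal RNA the share ran from 1.90% to 3.01% and was highest in the same 3 libraries.

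Levels below are CPM with TMM scaling (trimmed mean of M-values) of each library. On this scale the tested members summed to 17521 to 27296 CPM in untreated rats. In RG2833 rats they summed to 19508 to 27328. The highest library was 1.56-fold above the lowest. In untreated replicate 3 the sum was 27296, and in RG2833 replicates 4 and 5 it was 25471 and 27328. The other 7 libraries lay between 17521 and 21455. In bulk tissue, more cells rich in these mRNAs and more mRNA per cell cannot be told apart.

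The family moved as a block from rat to rat. For each library, the median over members of log2 CPM minus the gene's 10-library mean gives the family's common level. It was -0.29, -0.22, 0.37, -0.10 and -0.13 in untreated replicates 1 to 5 and -0.13, 0.01, -0.13, 0.26 and 0.34 in RG2833 replicates 1 to 5. In untreated replicate 3, 79 of 80 members lay above their own mean, and in RG2833 replicates 4 and 5, 80 and 79 did. In untreated replicates 1 and 5 none did. The same 3 libraries were the 3 highest for 78 of 80 members. Untreated replicate 3 was the highest library for 41 members and RG2833 replicate 5 for 38. Untreated replicate 1 was the lowest for 60.

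**Figure D1:**
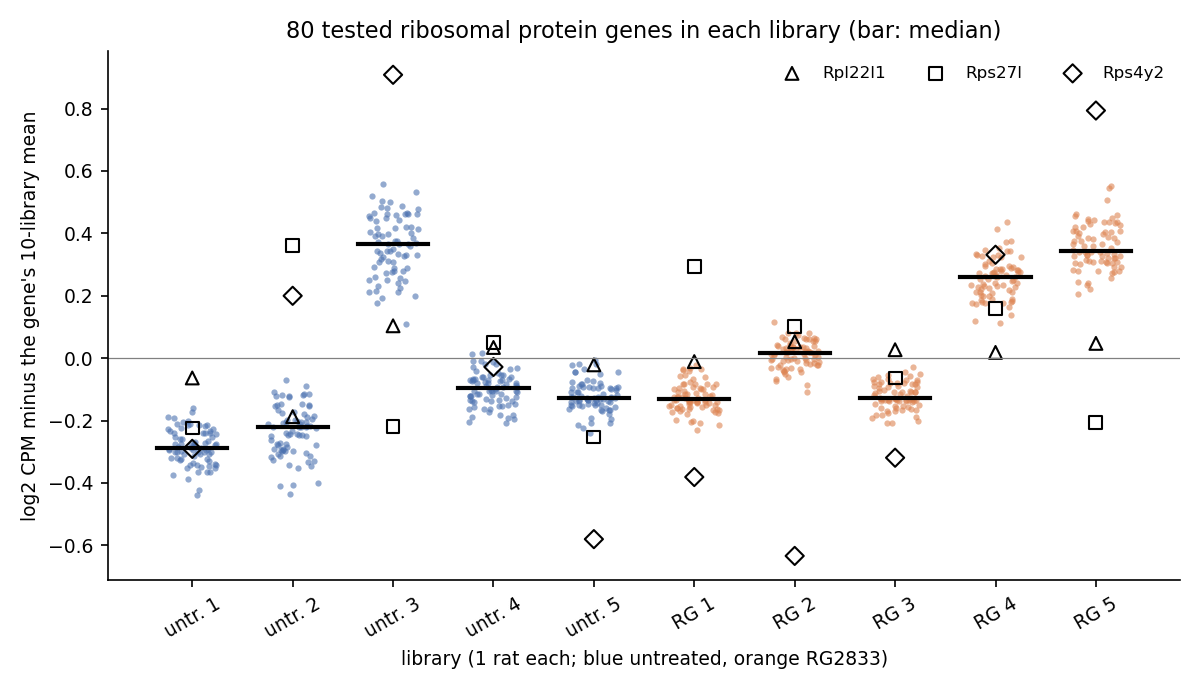
Log2 CPM minus the gene's 10-library mean (y axis) of the 80 tested ribosomal protein genes in each library (x axis, 1 rat each, blue untreated, orange RG2833); points are genes, bars the median, and open symbols 3 paralogs. The medians of untreated replicate 3 and RG2833 replicates 4 and 5 lie at 0.26 to 0.37, those of the other 7 libraries at -0.29 to 0.01.

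Both subunits shared this pattern. The large-subunit median ran from -0.28 to 0.34 and the small-subunit median from -0.29 to 0.37 over the 10 libraries. The ratio of summed CPM of large to small subunit genes, which is not corrected for transcript length, stayed between 1.56 and 1.59. It was 1.58 ± 0.0143 in untreated and 1.58 ± 0.0103 in RG2833 rats (SD, n = 5 each). A single principal component held 94.3% of the variance of the 80 members over the 10 libraries, where the first component of all 12161 tested genes held 40.1%. The median SD of a member's log2 CPM was 0.24, and once the common level of the other members was taken off it was 0.06. Pearson's r between pairs of members had a median of 0.97 over the 10 libraries, 0.98 within the 5 untreated and 0.98 within the 5 RG2833 libraries. These are descriptions over libraries that share depth and scaling, and the members are not independent measurements. Of the members 77 of 80 (96.2%) had r above 0.9 with the common level, as had 5.18% of all genes tested.

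Members differed in how strongly they followed the family. The response of a member was taken as the slope of its log2 CPM on the median of the other members over the 10 libraries, so that 1 means equal movement. Leaving out Rpl22l1, Rps27l and Rps4y2, which were set aside after their values were seen, it ran from 0.53 to 1.58 over 77 members with r of at least 0.92. The strongest of these 77 were the small zinc-binding proteins Rps29 (1.58), Rpl37 (1.53) and Rpl37a (1.46). Rpl9 (1.42), a protein of the large subunit near the base of the stalk, followed. The weakest were Rpl7 (0.53), Rps9 (0.56), which sits near the mRNA entry, Rpl3 (0.56), which reaches towards the peptidyl transferase centre, and Rpl27 (0.63). The median was 0.95 for the large and 0.99 for the small subunit.

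Rps29 was at 191, 193, 370, 225 and 217 CPM in untreated replicates 1 to 5 and at 235, 268, 222, 346 and 376 CPM in RG2833 replicates 1 to 5. The untreated values fall into 4 low and 1 high, and the RG2833 values into 3 low and 2 high. Rpl37 was at 185, 182, 354, 215 and 210 CPM against 207, 253, 208, 320.5 and 341 CPM, and the same 3 libraries were high. Rpl3 spanned less, at 459, 478, 599, 499 and 488 CPM against 509, 502, 494, 562 and 604 CPM. The ratio of Rpl37 to Rpl3 therefore ran from 0.38 in untreated replicate 2 to 0.59 in untreated replicate 3. It was 0.447 ± 0.0826 in untreated and 0.494 ± 0.0772 in RG2833 rats (SD, n = 5 each). In untreated rats without replicate 3 it was 0.412 ± 0.0237 (SD, n = 4). Rpl7 of the large subunit spanned 289 to 367 CPM in untreated and 327 to 406 CPM in RG2833 rats. The coefficient of variation within groups had a median of 17.3% over the 80 tested members and ranged from 4.64% for Rpl22l1 to 44.7% for Rps4y2.

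**Figure D2:**
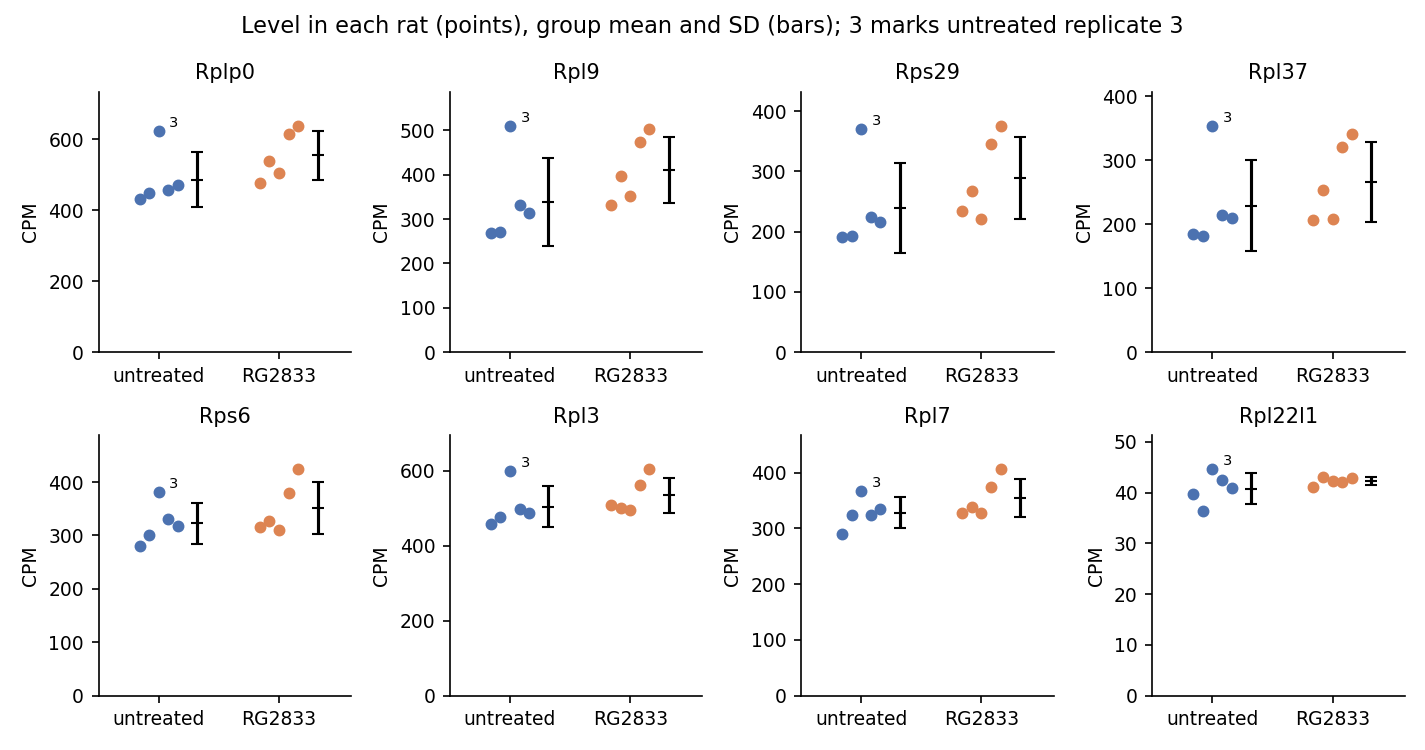
CPM on the TMM-scaled library size (y axes, from 0) of 8 members in the 5 untreated and 5 RG2833 rats; points are rats, bars the group mean and SD, and 3 marks untreated replicate 3. The groups overlap in all 8, and Rpl22l1 stays between 36.4 and 44.6 CPM.

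The stalk of the large subunit recruits the elongation factors; Rplp0 is its base and Rplp1 and Rplp2 are its arms. Rplp0 was at 430, 447, 623, 457 and 471 CPM in untreated and at 477, 537.5, 504, 614 and 637 CPM in RG2833 replicates 1 to 5. Of the RG2833 rats 5 lay above 4 of the untreated rats, and untreated replicate 3 lay within their range. Its fitted log2 fold change was 0.19 (SE 0.12), with the smallest p of the family, 0.147 unadjusted and 0.861 adjusted over all genes by edgeR's quasi-likelihood test. It was 0.29 without untreated replicate 3 (SE 0.09; edgeR unadjusted p = 0.00962, adjusted p = 0.294). Rplp1 averaged 569 ± 144 CPM over untreated and 642 ± 113 CPM over RG2833 rats (SD, n = 5 each), and its fitted difference on the log2 scale was 0.17 (SE 0.17). Rplp2 was at 176 ± 26.8 and 187 ± 23.9 CPM (0.08, SE 0.12). Without untreated replicate 3, Rplp1 was at 506 ± 36.1 CPM and Rplp2 at 165 ± 7.49 CPM in untreated rats (SD, n = 4). The fitted values were then 0.34 (SE 0.12) and 0.18 (SE 0.09), with edgeR adjusted p = 0.313 and 0.383.

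Other large-subunit members were alike in sign and in error. Rpl9 was at 269, 270.0, 510 (replicate 3), 332 and 313 CPM in untreated and at 332, 396, 352, 473 and 503 CPM in RG2833 replicates 1 to 5. With all libraries it had the largest fitted log2 fold change of the family, 0.28 (SE 0.19; edgeR adjusted p = 0.871). The groups overlapped through untreated replicate 3 and, by less than 1 CPM, replicate 4. Rpl37a had 0.28 (SE 0.19) and Rpl10a 0.14 (SE 0.10). Rpl10, which is needed to join the subunits late in assembly, averaged 263 ± 43.05 CPM over untreated and 293 ± 43.9 CPM over RG2833 rats (SD, n = 5 each; 0.16, SE 0.13). Rpl41, a very short peptide at the subunit interface, was at 390.4 ± 89.9 and 417 ± 64.2 CPM (0.10, SE 0.16). Rpl39, which lines the exit tunnel, was at 75.8 ± 16.4 and 81.1 ± 11.6 CPM (0.10, SE 0.15). These values were larger without untreated replicate 3: 0.47 for Rpl9, below the 0.49 of Rps29, 0.46 for Rpl37a, 0.23 for Rpl10a, 0.26 for Rpl10, 0.25 for Rpl41 and 0.23 for Rpl39. Their edgeR adjusted p then ran from 0.283 for Rpl9 to 0.356 for Rpl39.

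In the small subunit, Rps6, the S6 kinase substrate often used as a readout of mTORC1 activity at the protein level, was at 280.4, 301, 382, 332 and 318 CPM in untreated replicates 1 to 5. In RG2833 replicates 1 to 5 it was at 315.5, 326, 310, 379 and 424 CPM, and its fitted log2 fold change was 0.12 (SE 0.11; edgeR adjusted p = 0.919). The groups overlapped over most of their range. Rpsa, which also serves as the laminin receptor precursor, was at 446 ± 89.0 and 499 ± 86.5 CPM (0.16, SE 0.15). Rps27a, made as a fusion with ubiquitin, was at 327 ± 67.5 and 365 ± 58.3 CPM (0.16, SE 0.15). Rps3, which also has a DNA repair activity, had 0.16 (SE 0.11), and Rps13 0.17 (SE 0.11). Rps27 was at 123 ± 30.7 and 133 ± 25.1 CPM (0.12, SE 0.17). The values without untreated replicate 3 were 0.19 for Rps6, 0.29 for Rpsa, 0.29 for Rps27a, 0.24 for Rps3, 0.26 for Rps13 and 0.29 for Rps27, with edgeR adjusted p from 0.313 for Rps13 to 0.417 for Rps6.

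Of the 80 tested members, 79 had a fitted log2 fold change above 0, where 46.5% of all 12161 genes tested did. The family's median was 0.14, a 1.10-fold difference, and that of all genes was -0.01. It was 0.14 over 47 large-subunit and 0.15 over 33 small-subunit genes, and the values ran from -0.08 for Rps4y2 to 0.28 for Rpl9. None of the 80 had an adjusted p under 0.05, as for all genes tested (0% called), although DESeq2 called 7 genes in all (0.0576%), none of them a member. At an unadjusted p under 0.05, edgeR's quasi-likelihood test had 0 members, against 5.66% of all genes, 2.94% higher and 2.71% lower; DESeq2 also had 0, against 6.17%. In none did the groups separate, where 0.419% of all genes lay wholly higher and 0.584% wholly lower in RG2833. The 95% confidence intervals of single members all held 0, and at the median they ran from -0.17 to 0.45. The members move together, so their shared sign is not 79 separate observations.

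**Figure D3:**
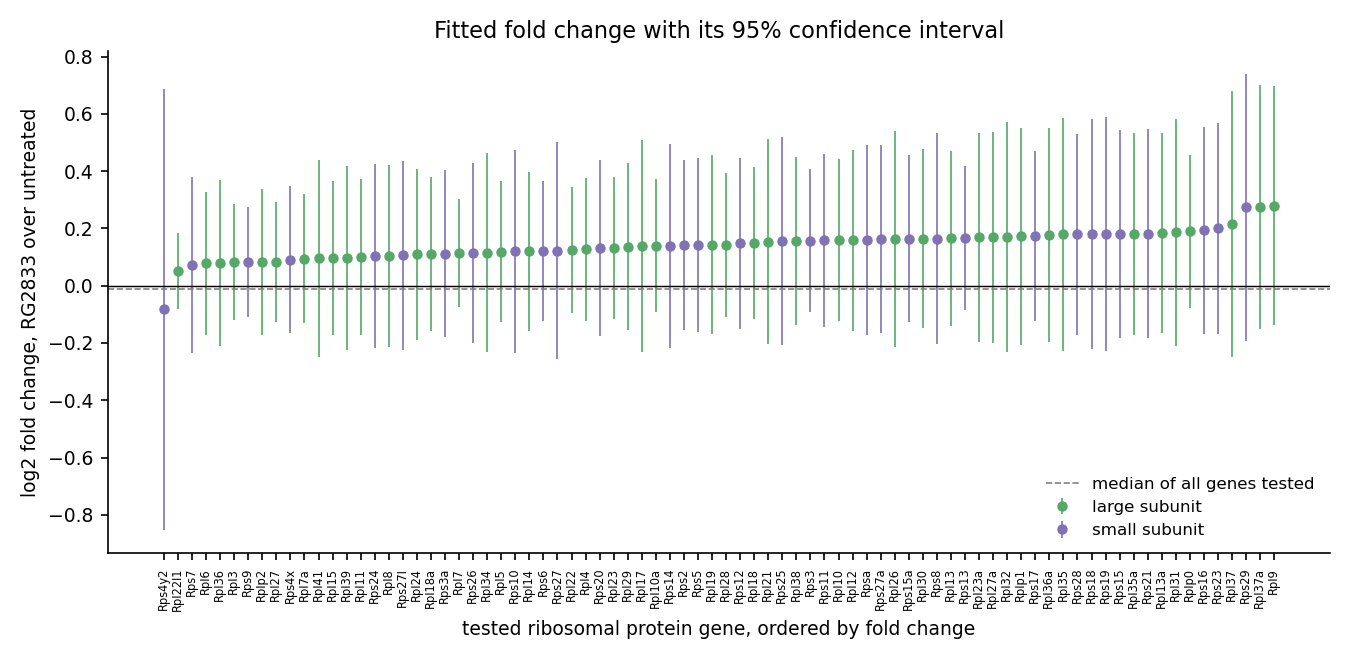
Fitted log2 fold change of RG2833 over untreated (y axis) for the 80 tested members in order (x axis), with 95% confidence intervals; green large, purple small subunit, dashed line the median of all genes tested (-0.01). All points but Rps4y2 lie above 0 and every interval crosses it.

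The size of the difference rested on which rats were counted. Without untreated replicate 3 the median log2 fold change was 0.26, all 80 members were above 0, and 55 of 80 had an unadjusted p under 0.05, all higher. Of all genes 14.2% had one in that fit, 9.24% higher. Still 0 members had an adjusted p under 0.05, and the smallest, 0.283, was that of Rpl9. In 7 members all 5 RG2833 rats then lay above the other 4 untreated rats, as in 2.85% of all genes. Of the 26 tested members chosen by rule to be named, 23 were over 1.5 times larger in that fit and 16 had an unadjusted p under 0.05. Without RG2833 replicate 5, the other extreme, the median was 0.07 and 78 members were above 0; 21 of the 26 were over 1.5 times smaller. Without untreated replicate 1 the median was 0.10, and 13 of the 26 were over 1.5 times smaller. Without RG2833 replicate 4 it was 0.10. Without both libraries that held choroid plexus RNA it was 0.15, with 0 members at an unadjusted p under 0.05. Under other scalings, filters and tests with all 10 libraries it stayed between 0.13 and 0.15.

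**Figure D4:**
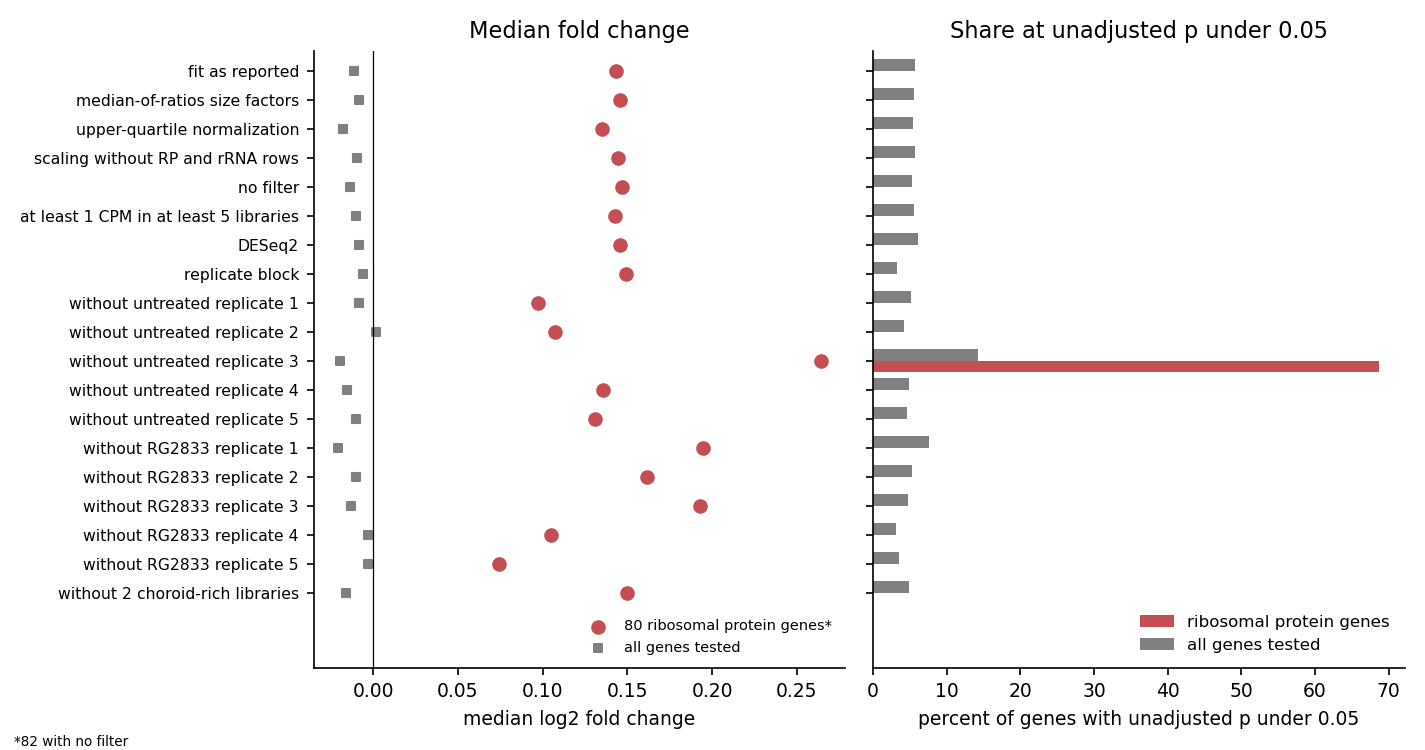
Left, median log2 fold change (x axis) of the ribosomal protein genes (red) and of all genes tested (grey) under each setting (y axis); right, percent of genes with an unadjusted p under 0.05. Without untreated replicate 3 the median of the members is 0.26 and 55 of 80 have such a p; in every other setting 0 do.

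Some paralogs followed the family less closely. Rpl22, which is found in the large subunit and also binds other RNAs, was at 60.5, 63.4, 80.6, 69.7 and 63.8 CPM in untreated and at 66.3, 70.6, 66.3, 79.8 and 85.3 CPM in RG2833 replicates 1 to 5. Its paralog Rpl22l1 was at 39.7, 36.4, 44.6, 42.5 and 40.9 CPM and at 41.2, 43.0, 42.3, 42.0 and 42.9 CPM. Rpl22l1 was thus nearly level, with a response of 0.23 to the family against 0.69 for Rpl22. The ratio of Rpl22 to Rpl22l1 ran from 1.52 in untreated replicate 1 to 1.99 in RG2833 replicate 5. It was 1.66 ± 0.12 in untreated and 1.74 ± 0.19 in RG2833 rats (SD, n = 5 each).

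Rps27l, a paralog of Rps27 known as a p53 target, had few counts, 82 to 165 per library. It was at 5.60, 8.45, 5.61, 6.80 and 5.48 CPM in untreated and at 8.07, 7.04, 6.27, 7.33 and 5.67 CPM in RG2833 replicates 1 to 5. Its response to the family was -0.25. The lowest values include the libraries in which the rest of the family was highest, untreated replicate 3 and RG2833 replicate 5, but also untreated replicates 1 and 5, where the family was low. Rps4y2, a near copy of Rps4x, had 34 to 98 counts per library and was the sole member with a negative fitted log2 fold change, -0.08 (SE 0.35), whose sign changed without untreated replicate 3 (0.20). The response of Rps4y2 to the family was 1.74, the highest of the 80 tested members, with r of only 0.76. Its 3 highest values, 5.85, 5.39 and 3.88 CPM, were those of untreated replicate 3, RG2833 replicate 5 and RG2833 replicate 4. The others were 1.93 to 3.53 CPM. Rps4x averaged 312 ± 43.4 CPM over untreated and 332 ± 45.03 CPM over RG2833 rats (SD, n = 5 each). The expected count of each copy was not whole in 1 of 10 libraries, untreated replicate 3 (6421.03 for Rps4x and 97.97 for Rps4y2). How reads were shared otherwise is not given in the sources used here. The uncertainty falls mostly on Rps4y2, which has few counts. Rpl3l, a muscle paralog of Rpl3, had 2 to 12 counts per library and Rpl39l 0 to 9.

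Of 5 tested ribosomal proteins under other symbols, 4 had r above 0.9 with the family's common level, among them Fau, made as a fusion with a ubiquitin-like protein, Gnb2l1 (RACK1, a scaffold on the small subunit) and Rpl36al. The median log2 fold change of the 5 was 0.14, and 0.24 without untreated replicate 3, where 3 were higher (against 9.24% of all genes) and 1 lower (against 4.96%) at an unadjusted p under 0.05. Fau was at 237, 237, 384, 256 and 262 CPM in untreated and at 272, 290, 270.3, 364 and 401 CPM in RG2833 replicates 1 to 5. The exception was Rsl24d1, a related protein that acts in assembly of the large subunit, which was at 46.9 ± 5.09 and 42.4 ± 3.64 CPM (-0.14, SE 0.09) and ran opposite to the family (r = -0.93 over 10 libraries). The log2 fold change of Fau without untreated replicate 3 was 0.36 (SE 0.12), and that of Rsl24d1 was -0.21 (SE 0.07).

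Other mRNAs known to carry a TOP tract were divided. Of 20 tested, 14 were above 0, the median log2 fold change was 0.06, and 11 had r above 0.9 with the family. Eef2, which moves the ribosome along the mRNA, averaged 1904 ± 375 CPM over untreated and 2232 ± 423 CPM over RG2833 rats (0.23, SE 0.16), and Eef1g, a subunit of elongation factor 1, at 406 ± 65.6 and 439 ± 55.1 CPM (0.11, SE 0.12). Eif4b, a helper of the initiation helicase, went the other way. It was at 230, 240, 219, 225 and 220 CPM in untreated and at 207, 210, 206, 189 and 215 CPM in RG2833 replicates 1 to 5. The groups did not overlap; the log2 fold change was -0.14 (SE 0.05), with an unadjusted p of 0.0254 and an adjusted p of 0.841 by edgeR. The median of the 20 without untreated replicate 3 was 0.09, and 6 were higher and 1 lower at an unadjusted p under 0.05, where 9.24% of all genes were higher and 4.96% lower. Eef2 was then at 0.36 (SE 0.13), Eef1g at 0.22 (SE 0.09) and Eif4b at -0.15 (SE 0.06).

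The rest of the translation machinery had medians near that of all genes. The lists of elongation and termination factors and of initiation factors had 5 of 11 and 17 of 40 genes above 0 and medians of -0.01 and -0.03. At an unadjusted p under 0.05 they had 0 genes, and 1 higher (Eif5a2) and 1 lower (Eif4b), against 2.94% of all genes higher and 2.71% lower. In the first list Eef1a2, the elongation factor of neurons and muscle, was at 1352 ± 85.8 and 1243 ± 25.4 CPM (-0.12, SE 0.07), and Eef2k, the kinase that inhibits Eef2, at 36.9 ± 5.86 and 31.9 ± 3.72 CPM (-0.21, SE 0.12). Eif5a2 had 0.23 (SE 0.09). In the list of mTORC1, S6 kinases and TOP regulators, 12 of 19 were above 0, with a median of 0.02 and 0 at an unadjusted p under 0.05. Tsc2, an inhibitor of mTORC1, was at 291 ± 108 and 396 ± 119 CPM (0.44, SE 0.26), and Eif4ebp1, a translation repressor that mTORC1 inactivates, at 10.8 ± 1.78 and 12.5 ± 1.96 CPM (0.21, SE 0.14). Both were larger without untreated replicate 3, at 0.69 (SE 0.21) and 0.32 (SE 0.12). Of the 19 genes of that list, 3 were then higher at an unadjusted p under 0.05 (against 9.24% of all genes). In that fit 3 elongation and termination factors were higher and 1 lower, and 0 initiation factors were higher and 2 lower, against 9.24% of all genes higher and 4.96% lower. Eef1a2 was then at -0.12, Eef2k at -0.15 and Eif5a2 at 0.18.

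Most ribosome biogenesis factors were below 0. Of 45 tested, 39 were below 0, where 53.5% of all genes were; the median was -0.07, and 3 (against 2.71% of all genes) had an unadjusted p under 0.05, all lower. With untreated replicate 3 left out, 41 were below 0 and 5 had such a p (against 4.96%), with a median of -0.10, Gnl2 at -0.28 and Rrp1 at -0.27. Gnl2, a GTPase of nucleolar assembly of the large subunit, averaged 33.7 ± 1.67 CPM over untreated and 27.8 ± 2.96 CPM over RG2833 rats (SD, n = 5 each; -0.27, SE 0.08; edgeR adjusted p = 0.841). Rrp1, which acts in processing of the ribosomal RNA precursor, was at 49.6 ± 4.68 and 42.7 ± 3.31 CPM (-0.22, SE 0.08). Of the 45 factors 0 had r above 0.9 with the family, and their median r was -0.67 over 10 libraries.

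Mitochondrial ribosomal proteins, 69 genes, had 38 above 0, a median of 0.01 and 1 gene higher at an unadjusted p under 0.05 (against 2.94% of all genes), Mrps36 (0.15, SE 0.07); Mrpl51 had 0.12 (SE 0.06). Of these 69, 1 had r above 0.9 with the cytosolic family. Among nuclear subunits of oxidative phosphorylation 71 of 74 were above 0 (against 46.5% of all genes), with a median of 0.08. Of these, 11 were higher at an unadjusted p under 0.05 (against 2.94%), led by Ndufb6 (0.21, SE 0.06) and Uqcrq (0.19, SE 0.06), and in 4 the groups did not overlap (against 0.419%); 10 of 74 had r above 0.9 with the family. Proteasome subunits had 12 of 39 above 0 and a median of -0.04, with 0 at an unadjusted p under 0.05; Psmd11 and Psmd1 had -0.11 (SE 0.06 and 0.08). For these 3 lists the medians without untreated replicate 3 were 0.01, 0.10 and -0.08, and 4, 27 and 1 genes were higher (against 9.24% of all genes in that fit) and 2, 0 and 3 lower (against 4.96%) at an unadjusted p under 0.05. In that fit Mrps36 was at 0.12, Mrpl51 at 0.14, Ndufb6 at 0.18, Uqcrq at 0.22, Psmd11 at -0.15 and Psmd1 at -0.16. None of the genes in these lists had an adjusted p under 0.05 in edgeR's test, with or without that library.

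Markers of other cell types varied over the same rats. The summed level of 9 microglial markers was 936, 707 and 754 CPM in untreated replicate 3 and RG2833 replicates 4 and 5, against 489.5 to 611 CPM in the other 7. For 6 endothelial markers it was 406, 369 and 446 CPM against 212 to 286, and for 8 astrocyte markers 10530, 11380 and 11540 CPM against 6779 to 10030. The groups as a whole were at 489.5 to 936 CPM (untreated) and 528.5 to 754 CPM (RG2833) for microglia, 212 to 406 and 255 to 446 CPM for endothelium, and 6779 to 10530 and 7826 to 11540 CPM for astrocytes. Summed neuronal markers were at 4113, 4764 and 4887 CPM in the 3 libraries and at 4461 to 5475 CPM in the others, but Map2, chosen after its values were seen, ran against the other 5 (r with the family 0.81, against -0.89 to -0.80). As a mean of log2 CPM the list was lowest in the 3 libraries, at -0.33, -0.12 and -0.14 from its 10-library mean, against -0.06 to 0.22. CA3 markers were at 277, 491 and 358 CPM against 615.5 to 819 CPM, and dentate markers at 31.6, 84.5 and 67.1 CPM against 93.7 to 223 CPM. Markers of CA1, oligodendrocytes, choroid plexus and red blood cells did not separate the 3 libraries from the rest. Of the markers in these lists, 8 of 8 for astrocytes, 6 of 9 for microglia and 5 of 6 for endothelium were above 0 in the comparison of RG2833 with untreated. So were 1 of 6 for neurons, 1 of 5 for CA3, 4 of 4 for CA1, 2 of 7 for oligodendrocytes, 6 of 9 for choroid plexus, and 0 of 3 each for dentate granule and red blood cells. With all libraries the median log2 fold change was 0.32 for astrocyte, 0.06 for microglial, 0.26 for endothelial and -0.07 for neuronal markers. Without untreated replicate 3, 8 of 8 astrocyte, 9 of 9 microglial and 6 of 6 endothelial markers were above 0, and 1 of 9 for choroid plexus. In that fit 6 astrocyte, 4 microglial and 3 endothelial markers were higher at an edgeR unadjusted p under 0.05, against 9.24% of all genes. So were 1 CA1 and 1 neuronal marker, and 2 oligodendrocyte and 1 dentate marker were lower (against 4.96%). Ribosomal RNA was high in the same 3 libraries (11.4%, 9.37% and 8.92%) but also in RG2833 replicate 3 (8.71%), where the family's level was -0.13. The part of these in the family's level was not tested.

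**Figure D5:**
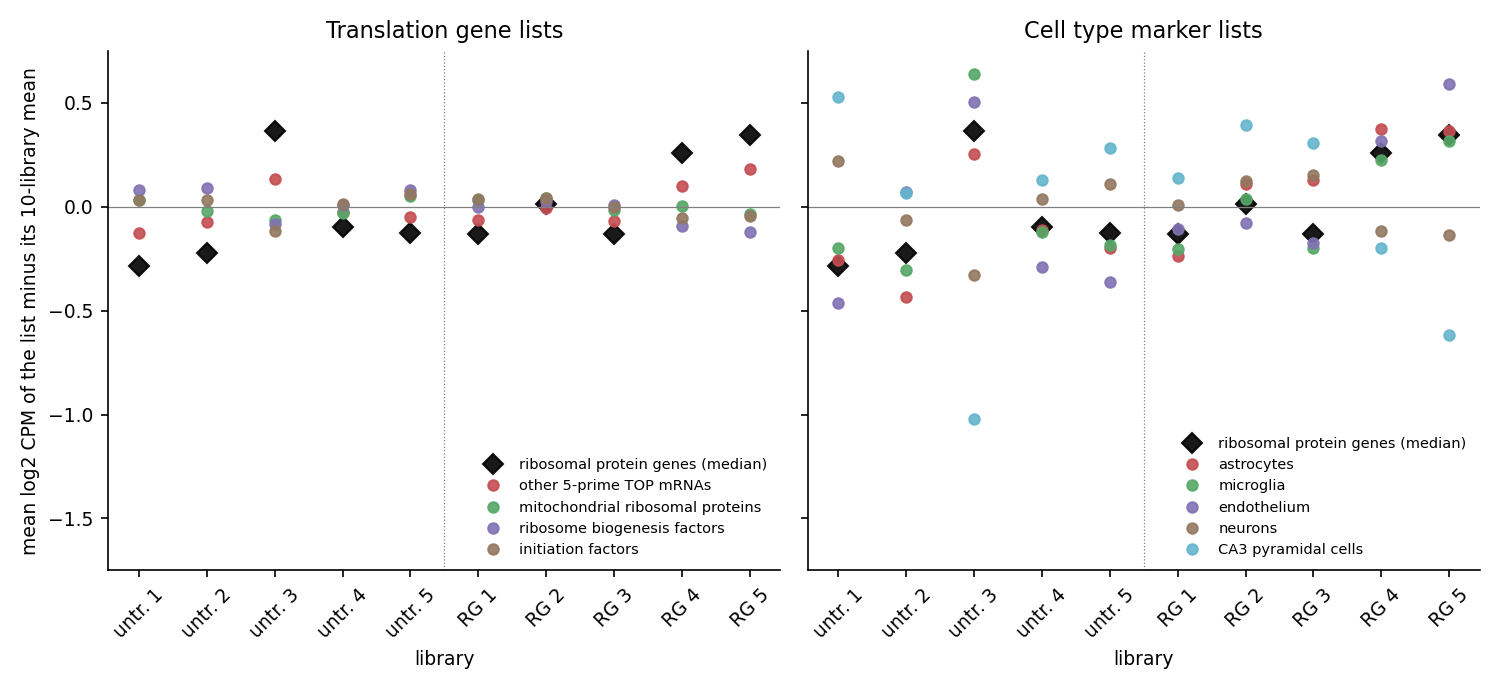
Mean log2 CPM of each list minus its 10-library mean (y axes), by library (x axes), for translation lists (left) and cell type markers (right); black diamonds are the ribosomal protein median, 0.37 in untreated replicate 3 and 0.34 in RG2833 replicate 5. Microglial and endothelial markers are at 0.64 and 0.50 in untreated replicate 3, and CA3 markers at -1.02.

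The 8 other genes whose levels over the 10 libraries were most like the family's common level had r of 0.98 to 0.99, given as a description. They were the complexin gene Cplx3, Eef1g, Itm2a, the ferritin light chain Ftl1, RGD1566239, Fau, Fxyd3 and the protein kinase Prkd3. Cplx3, whose product acts in transmitter release, had a low level. It was at 3.92, 4.35, 26.0, 7.16 and 6.95 CPM in untreated and at 6.97, 10.8, 5.88, 19.1 and 26.1 CPM in RG2833 replicates 1 to 5. Ftl1 was at 490.2, 515, 815, 549 and 581 CPM and at 559, 638, 562, 737 and 779 CPM. In both, the 3 highest libraries were those in which the family was highest. Their log2 fold changes were 0.51 (SE 0.58) and 0.15 (SE 0.15), and 1.29 (SE 0.45) and 0.29 (SE 0.11) without untreated replicate 3.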

How the data were processed

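The authors deposited RSEM expected counts per gene, estimates that need not be whole; the submitters' processing notes name bcl2fastq 2.17, Bowtie2 2.1.0, RSEM 1.2.15, edgeR and the build rn6. Annotation and filters are not given in the sources used here. The libraries, 1 per rat, were of stranded mRNA, per the labels' protocols. A deposited table of scaled values was not used. For 14 members some counts were not whole, as where RSEM divides reads between near copies, so their levels are less certain. Coordinates are of GRCr8 and only for the printed windows.

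Counts were rounded to whole numbers, and edgeR 4.0.16 (R 4.3.3) was used. filterByExpr (minimum count 10, minimum total 15) kept 12161 genes (70.8%), scaled by TMM and compared by the robust quasi-likelihood F test with Benjamini-Hochberg adjustment over all of them, threshold 0.05. Log2 CPM used a prior count of 2, and standard errors came from the F statistic. DESeq2 1.42.0 was an alternative. The fit was tested on simulated data. Over 45 pairs of libraries the chi-square per gene was at least 7.43, so each was counted as its own sample. Wilson intervals cover counting error only. The members and lists were chosen with earlier results of these data known. Members named by rule are those with the smallest p in each direction (6 higher, and 1 lower, since no other was below 0), the 5 with the largest and the 5 with the smallest coefficients of variation, 14 in any case, and paralogs; of each gene list other than cell type markers, which are given by sums and counts, the 2 genes with the smallest p (1 of which is not reported here), and the 8 genes most like the family. A planned level per coding length was not computed, since no lengths were used here, so levels are not compared between genes.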

Additional observations from a re-analysis of the deposited data

Results flagged for a closer look

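In 26 of 108 sets of 5 values, 1 library lay far from the rest: its distance to the next value was over 0.71 of the range of all 5. In all 26 the far library was untreated replicate 3, on the high side. Chance flags about 1 in 20 independent sets, but these genes move together, and many were chosen for a large variation or for their likeness to the family, so no chance count applies.

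The members' share of all counts had a gap of 0.745 of the range (2.66% against 1.82% to 2.03%), and their summed CPM one of 0.756 (27296 against 17521 to 19903). Among single members the gap was 0.819 for Rpl37a, 0.813 for Rps29, 0.811 for Rpl37 and Rpsa, 0.808 for Rplp1, 0.785 for Rplp0, 0.780 for Rpl41, 0.770 for Rps27, 0.741 for Rplp2, 0.738 for Rpl9, 0.729 for Rps27a, 0.722 for Rpl10 and 0.716 for Rpl3. Among other genes it was 0.853 for Cplx3 (26.0 CPM against 3.92 to 7.16), 0.828 for RGD1566239, 0.826 for Fau, 0.814 for Eef1g, 0.763 for Fxyd3, 0.747 for Prkd3, 0.741 for Itm2a, 0.722 for Eif4ebp1, 0.720 for Ftl1, 0.716 for Eef2 and 0.714 for Tsc2 (477 CPM against 198 to 278). In RG2833 rats no set passed the limit.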

How the results depend on the processing

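Alternatives were other scalings (median-of-ratios, upper quartile, without ribosomal protein and ribosomal RNA rows), no filter, at least 1 CPM in 5 libraries, DESeq2, the replicate number as a block, leaving out each library, and leaving out both choroid-rich libraries. All were planned. The count of genes with an adjusted p under 0.05 was 7 in DESeq2 and 0 otherwise; that of members was 0 throughout. Leaving out 1 library at a time, members at an unadjusted p under 0.05 numbered 0 to 55, the 55 without untreated replicate 3; members above 0 numbered 78 to 80 and the family's median was 0.07 to 0.26. With no filter all 82 members entered and 81 were above 0. The log2 fold change of Rps4y2 changed sign without untreated replicate 3, RG2833 replicate 1 or RG2833 replicate 2 (0.01 to 0.20, and -0.35 to 0.20 over all single omissions) and without both choroid-rich libraries (0.021); the cause was not tested. The other 464 values of named members and 450 of other named genes kept their sign and their side of the threshold. The labels state no pairing of the rats by replicate number. Same-numbered libraries had deviations correlated at -0.49 to -0.03 over the tested genes. These deviations hold every difference between rats, so they cannot exclude a pairing. With the replicate block the family's median was 0.15, 79 members were above 0, and 0 were called. Depth limits Rps27l and Rps4y2, which rest on 34 to 165 counts per library.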
